A study of Homo sapiens with 90 samples.

Results

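CYP2E1 is the gene of cytochrome P450 2E1, and its counts were followed here as 1 row of a table of 28307 genes, in 90 libraries of HepaRG cells. HepaRG is an established human liver progenitor line from a hepatocellular tumour that can be grown as progenitors and then differentiated into a mixed culture of hepatocyte-like and biliary-like cells. The row was found by its symbol, which no other row carries, and the gene was chosen with earlier results of these data known. RNA was measured by BRB-seq, in which each RNA sample receives a barcode at reverse transcription and many samples are sequenced as 1 pool. The libraries came from parental cells, labelled wt, and from cells labelled CYP2D6, which carry a stably transduced lentiviral expression construct for cytochrome P450 2D6. Each genotype was sampled in 15 conditions with 3 libraries each, lettered a, b and c, which makes 30 groups. Progenitor cells were taken at days 0, 2, 4, 7 and 14 without DMSO. Cells labelled FreshDifferentiated (fresh below) and cells labelled Thawed were both sampled on day 30 (no DMSO), on day 32 either without or with it, and on days 37 and 44 in its presence. Fresh and thawed cells had been differentiated for 2 weeks with 1.7% DMSO per the labels' protocols, so the day 30 libraries, labelled noDMSO, came after a DMSO exposure of the differentiation itself. The labels do not say whether the 3 libraries of a group came from separate cultures, whether the transduced cells are 1 clone, or which promoter drives the transgene. The p-values below therefore measure the spread between these libraries, which may be technical.

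Cytochrome P450 2E1 sits in the membrane of the endoplasmic reticulum, where it takes electrons from cytochrome P450 reductase (POR) and cytochrome b5 (CYB5A). It oxidises ethanol and other small molecules such as acetone, and it forms the reactive quinone imine from acetaminophen. In liver it is found mainly in hepatocytes around the central vein, and much of its known control by ethanol and ketones acts on the stability of the protein, which RNA counts do not show.

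In the RefSeq annotation of GRCh38.p14, CYP2E1 lies on the plus strand of chromosome 10 at chr10:133527363-133539123. The GENCODE 29 transcript that matches its RefSeq transcript has 9 exons and 1667 bases, and its last exon, at chr10:133538780-133539116, holds 337 of them. Of 1618 distinct stretches of 50 bases in that transcript, 0 were found in transcripts of any other gene, so CYP2E1 has no near-identical copy at that length. An antisense gene, AL161645.1, overlaps the start of CYP2E1 at chr10:133526259-133527513. The strand used for counting is not given in the sources used here, so reads within the stretch that both genes share cannot be told apart. The last exon of CYP2E1 lies outside that stretch. The nearest RefSeq genes on the upstream side are the long noncoding RNA LOC105378575, of the minus strand and 403 bases away, and the pseudogenes LOC124902569 and OR7M1P. None of them is a row of the count table. On the downstream side are SYCE1, a meiosis gene of the minus strand that lies 14775 bases away, and the pseudogenes SPRNP1 and OR6L1P. SYCE1 had 8 counts in all 90 libraries together and SPRNP1 had 8, against 25611 for CYP2E1. A retained-intron transcript of CYP2E1 in GENCODE 29 runs to position 133561220, past the near end of SYCE1.

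The 250 bases before the RefSeq start of CYP2E1, chr10:133527113-133527362 on the plus strand of GRCh38.p14, are shown because they are the stretch next to the start of a transcript whose level moved over a wide range in these cells. Capitals mark a TATAAA match that begins 30 bases before the start and a CCAAT match on the other strand (read as ATTGG) that begins 66 bases before it.
CYP2E1 promoter: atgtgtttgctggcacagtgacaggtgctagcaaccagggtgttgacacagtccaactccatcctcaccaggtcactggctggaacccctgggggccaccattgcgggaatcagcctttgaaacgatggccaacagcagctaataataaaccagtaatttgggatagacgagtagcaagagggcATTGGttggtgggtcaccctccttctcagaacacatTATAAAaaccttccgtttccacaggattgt
On both strands of 35116 RefSeq promoters of this length, TATAAA was found in 10.7% and CCAAT in 32%. GATAAG was in 5.65% of them and is not in the window shown. These matches describe letters only.

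Depth was 723391 to 3882866 counts (median 1935150) in 87 usable libraries. Another 3, nearly empty, held 0 or 1 CYP2E1 counts. They are replicate c of parental progenitor day 2, parental progenitor day 14 and parental fresh day 30, and those groups have n = 2 in all levels below, although the libraries stayed in the fit. The transduced gene was present as labelled: group means of CYP2D6 were 0 to 2.66 CPM in parental cells and 4.82 to 19.0 CPM in transduced cells. Of the 8 hepatocyte defining markers all had counts in every status, and their summed level was 3005 to 50424 CPM in progenitors, 40155 to 110914 CPM in fresh cells and 32393 to 115922 CPM in thawed cells. Of the 9 biliary and progenitor markers EPCAM had no count, and the sum of the rest was 426 to 766 CPM in progenitors, 297 to 473 CPM in fresh and 327 to 564 CPM in thawed cells. The 8 stellate, fibroblast and endothelial markers summed to at most 145 CPM and the 6 leukocyte markers to at most 109.8 CPM in any usable library. In bulk RNA such as this, fewer cells that hold a transcript and less of it per cell cannot be told apart.

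CYP2E1 was a transcript of a few counts per library in progenitors and rose by a large factor in differentiated cultures. Its level is given as CPM, which here is the count divided by the TMM-scaled library total and multiplied up to a fixed total for every library. Over all 87 usable libraries it averaged 179 CPM. In progenitors of days 0 to 7 it was 5.75 ± 2.56 CPM (SD, n = 23), from 5 to 20 counts a library, and the highest of all groups, parental fresh day 44, was at 698 ± 50.5 CPM (SD, n = 3). Fresh cells ran from 45.2 to 755 CPM with a median of 220 (n = 29) and thawed cells from 69.3 to 491 CPM with a median of 205 (n = 30). Every fresh and thawed library except those of day 32 without DMSO lay above every progenitor library. At day 32 without DMSO, 1 progenitor library, parental day 14 replicate a at 71.6 CPM, lay within their range.

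**Figure D1:**
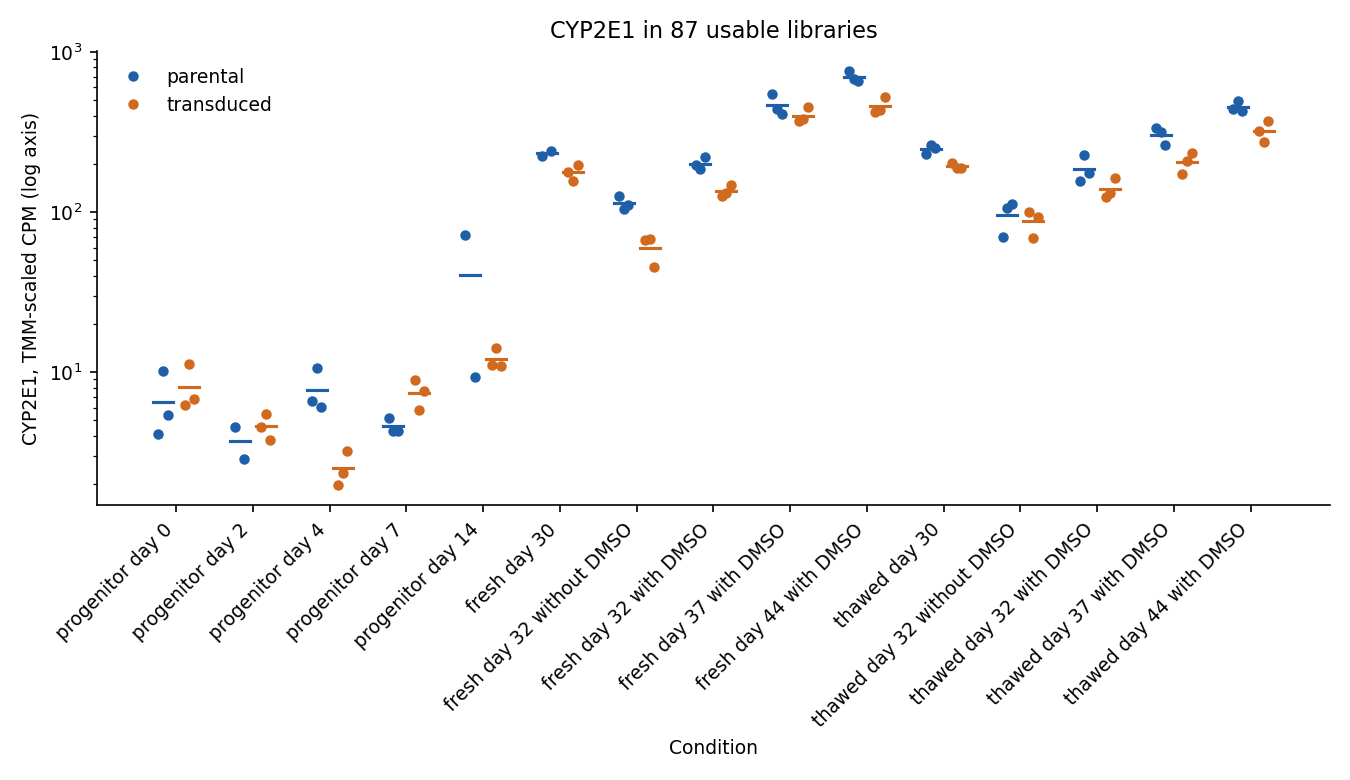
CYP2E1 in each of the 87 usable libraries as TMM-scaled CPM on a log axis, by condition along the horizontal axis, with parental libraries in blue, transduced libraries in orange and a short line at each group mean. Progenitor libraries lie near 2 to 14 CPM apart from 1 parental day 14 library at 71.6 CPM, levels dip at day 32 without DMSO, and parental fresh day 44 is highest.

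Ordered by mean level over both genotypes, the conditions ran from fresh day 44 (578 ± 140 CPM, SD, n = 6) and fresh day 37 (432 ± 63.6 CPM, n = 6) through thawed day 44 (387 ± 81.2 CPM, n = 6) and thawed day 37 (255 ± 62.3 CPM, n = 6). Then came thawed day 30 (220 ± 32.3 CPM, n = 6) and fresh day 30 (200 ± 34.2 CPM, n = 5), followed by day 32 with DMSO in fresh (168 ± 38.1 CPM, n = 6) and thawed cells (163 ± 36.6 CPM, n = 6). The ranges of all these neighbours overlapped. A gap without overlap separated thawed day 32 with DMSO, at 125 CPM or more, from thawed day 32 without DMSO, at 91.8 ± 18.5 CPM (n = 6) and at most 113 CPM. Fresh day 32 without DMSO was next at 87.0 ± 31.5 CPM (n = 6), and its highest library, at 126 CPM, reached into the range of thawed day 32 with DMSO. Progenitor day 14 followed at 23.4 ± 27.0 CPM (n = 5), and days 0, 7, 4 and 2 at 7.33, 6.02, 5.14 and 4.25 CPM, again with overlap between all neighbours. Among the 30 groups only 3 were separated from the next lower one: parental fresh day 44, transduced fresh day 32 with DMSO and transduced thawed day 32 without DMSO.

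Between days 0 and 7 the progenitors held CYP2E1 near the limit of detection, and edgeR called no change from step to step. Parental libraries had 4.13, 10.1 and 5.37 CPM at day 0, and 4.56 and 2.86 CPM at day 2. Parental day 4 gave 6.60, 10.6 and 6.09 CPM and day 7 gave 5.18, 4.31 and 4.28 CPM. Transduced libraries had 6.25, 11.3 and 6.80 CPM at day 0, 4.56, 5.51 and 3.77 at day 2, 1.98, 2.35 and 3.21 at day 4, and 8.94, 5.77 and 7.64 at day 7. The transduced day 4 libraries were below all 3 parental ones and the transduced day 7 libraries above them, so the order of the genotypes was not the same at each day. Fitted over both genotypes with edgeR's quasi-likelihood test, the log2 change was -0.76 ± 0.35 (SE, Benjamini-Hochberg adjusted p = 0.0991) from day 0 to 2, and without the libraries lettered a that step was called, at -1.13 (adjusted p = 0.0238). It was 0.10 ± 0.39 (adjusted p = 0.916) from day 2 to 4 and 0.40 ± 0.31 (adjusted p = 0.446) from day 4 to 7. A gene is called at an adjusted p under 0.05 over all 12125 genes tested, and the same steps called 31.1%, 15.5% and 17.7% of those genes. With 5 to 20 counts a library, small changes between these days were not detectable at this depth.

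At day 14 CYP2E1 was higher than at day 7, by 1.95 ± 0.25 on the log2 scale or 3.86-fold in edgeR (SE, adjusted p = 8.74e-09, with 7.62% of genes called), and much of that size rests on 1 library. The parental libraries had 71.6 CPM (replicate a, 274 counts) and 9.30 CPM (replicate b, 22 counts). The transduced ones had 11.1, 14.2 and 10.98 CPM. Replicate a of the parental cells stood far above the other 4 libraries, which averaged 11.4 ± 2.04 CPM (SD, n = 4). Without that library the rise from day 7 was 0.91 ± 0.23 and stayed called (adjusted p = 0.00748 in edgeR). The change from day 0 to day 14 was 1.69 ± 0.26 (adjusted p = 6.02e-07, with 10.9% of genes called) with it and 0.66 (adjusted p = 0.0657) without it, where it was no longer called. The hepatocyte markers summed to 50424 CPM in that library, 35322 CPM in parental replicate b and 43799 to 48548 CPM in the transduced libraries. Its biliary and progenitor sum was 505 CPM beside 464 to 575 CPM in the other 4, and their part in the result was not tested.

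Differentiation brought the largest step. From progenitor day 14 to fresh day 30 CYP2E1 rose 8.88-fold, a log2 change of 3.15 ± 0.21 (SE, adjusted p = 3.49e-19 in edgeR, with 23.3% of genes called). Of 12125 genes it had the 10th highest fitted rise. The day 14 side includes parental replicate a at 71.6 CPM, beside 9.30 to 14.2 CPM in the other 4 libraries. That library makes the fitted rise smaller, so its fold and rank depend on it. At fresh day 30 the parental libraries had 225 and 242 CPM and the transduced ones 178, 157 and 197 CPM. All 5 lay above every day 14 library. The rise ranged from 2.86 to 4.19 over the alternatives and was called in all 11 of them.

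Of the other enzymes of the CYP2 family, which metabolise drugs, steroids and fatty acids, most rose at this step, where 11.8% of all genes rose and 11.5% fell. Of 11 tested members 8 rose and 0 fell, with a median log2 change of 1.03 beside 0.04 over all genes. CYP2B6, a target of the receptor CAR, rose by 1.62 and CYP2C8, which oxidises paclitaxel, rose by 0.51. Of the 11 tested P450 enzymes outside the family 7 rose and 1 fell, and CYP3A4, the main drug oxidase of adult liver, rose by 2.75. The alcohol and aldehyde enzymes gave 6 rises and 1 fall among 11 tested. ADH1B, an ethanol dehydrogenase, rose by 1.00, while ALDH1A1, a retinal dehydrogenase, had a log2 difference of -0.14 that was not called. The genes that serve P450 electron transfer and haem synthesis gave 3 rises and 1 fall among 13, shares near those of all genes. POR, the P450 reductase, rose by 1.19 and UROD, of haem synthesis, fell by 0.44. Genes of pericentral hepatocytes, the zone where CYP2E1 is known to be found in liver, gave 3 rises and 1 fall among 9 tested of 18. CYP1A2 and the dioxin receptor AHR rose by 1.44 and 1.20, while the glutamine synthetase gene GLUL, the classic gene of that zone, fell by 0.63. TBX3, AXIN2, RNF43 and ZNRF3, which respond to Wnt, and RGN, a calcium-binding enzyme, had differences of 0.10 to 0.91 that were not called. Of 11 periportal genes 6 rose and 0 fell.

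**Figure D2:**
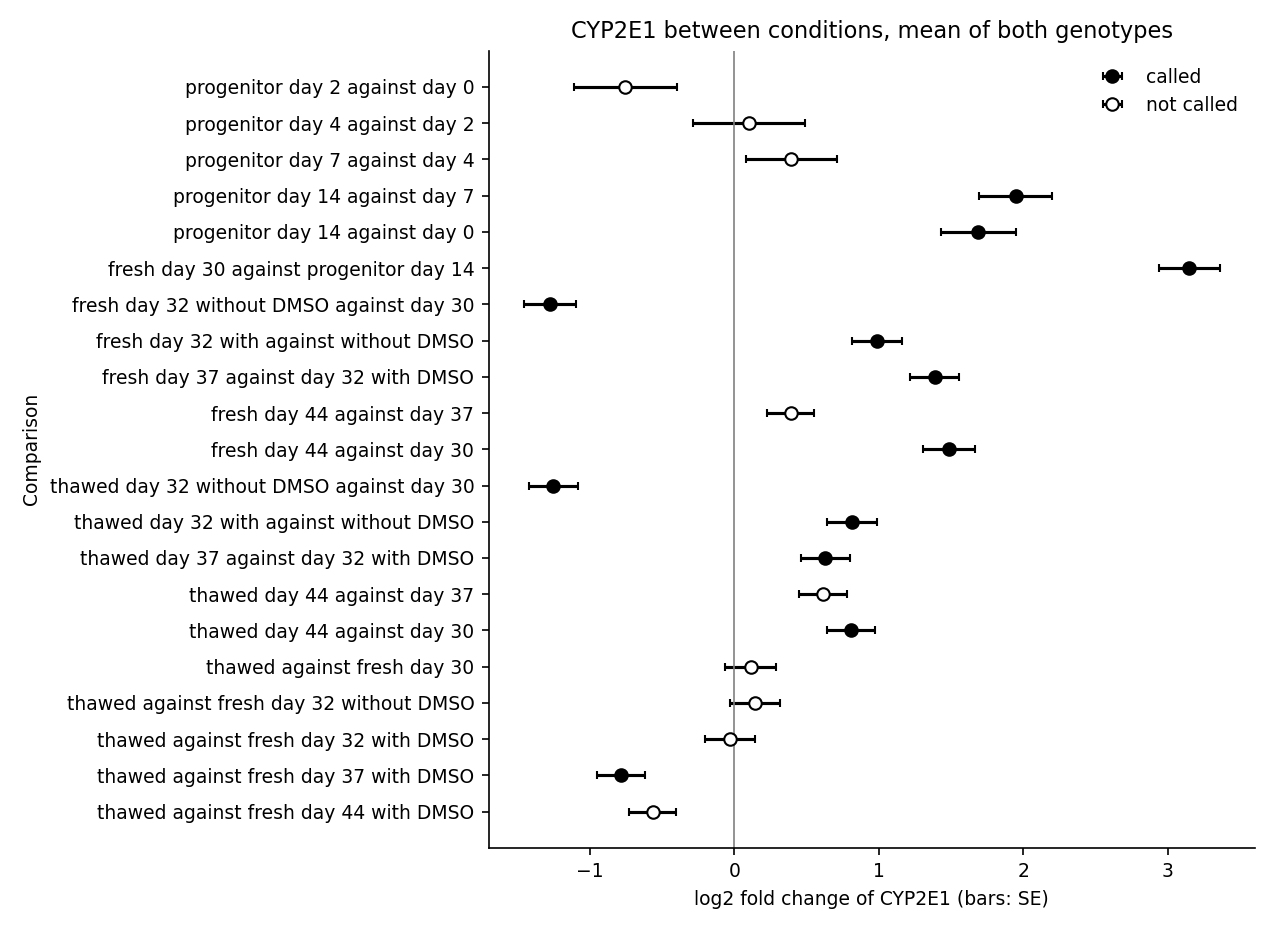
Fitted log2 fold changes of CYP2E1, mean of both genotypes, on the horizontal axis for each comparison between conditions, with bars for the SE and filled points for called comparisons. The step from progenitor day 14 to fresh day 30 is farthest from 0 at 3.15, and day 32 without DMSO against day 30 gives the lowest values, -1.28 in fresh and -1.25 in thawed cells.

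At day 32 without DMSO, CYP2E1 was lower than in any other fresh or thawed condition. Parental fresh libraries had 126, 105 and 111 CPM and transduced ones 67.1, 67.6 and 45.2 CPM at day 32 without DMSO. The fall was 2.43-fold in fresh cells, a log2 change of -1.28 ± 0.18 (SE, adjusted p = 9.42e-08 in edgeR, with 17.3% of genes called). Thawed cells had 230, 262 and 251 CPM (parental) and 201, 188 and 188 CPM (transduced) at day 30, and 69.5, 106 and 113 CPM (parental) and 99.9, 69.3 and 93.6 CPM (transduced) at day 32 without DMSO. Their fall was 2.38-fold, or -1.25 ± 0.17 (adjusted p = 3.75e-08, with 11.4% of genes called). In both statuses every library at day 32 without DMSO lay below every library at day 30, and the fall was called in all 10 alternatives.

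At day 32, cells with DMSO held more CYP2E1 than cells without it. Fresh libraries with DMSO had 196, 186 and 220 CPM (parental) and 127, 132 and 148 CPM (transduced). The difference from cells without DMSO was 1.98-fold, or 0.99 ± 0.17 (SE, adjusted p = 8.56e-05 in edgeR, with 2.15% of genes called). All 6 libraries with DMSO lay above all 6 without it, by a narrow margin between transduced cells with DMSO and parental cells without it. Thawed libraries with DMSO had 156, 227 and 176 CPM (parental) and 125, 132 and 163 CPM (transduced). There the difference was 1.76-fold, or 0.82 ± 0.17 (adjusted p = 0.000649, with 7.04% of genes called), and no library with DMSO overlapped one without. The fresh and thawed effects differed by -0.17 ± 0.24 (95% interval -0.66 to 0.32), which was not called (adjusted p = 0.996, with 0.0165% of genes called). Without the libraries lettered c neither effect was called, at 0.82 (adjusted p = 0.129) in fresh and 0.85 (adjusted p = 0.0579) in thawed cells, with the size little changed.

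The called P450 genes split at this comparison, and CYP2E1 was among those higher with DMSO. Of all genes 0.478% rose and 1.67% fell in fresh cells, and 2.28% rose and 4.77% fell in thawed cells. In fresh cells, 1 other CYP2 gene rose and 2 fell of 11, and outside the family 3 rose and 1 fell of 11. In thawed cells 1 rose and 3 fell in the CYP2 family, and 5 rose and 2 fell outside it. CYP2B6 rose by 1.28 in fresh and 1.64 in thawed cells, and CYP3A4 by 0.92 and 1.63. CYP3A5, which shares many substrates with CYP3A4, rose by 0.77 and 0.78. CYP2C8 fell by 0.53 and 0.47. CYP4A11, a fatty acid omega-hydroxylase, which like CYP2C19 was named after its values were seen, fell by 2.77 and 1.82. CYP2C19 fell by 0.82 and 0.84.

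**Figure D3:**
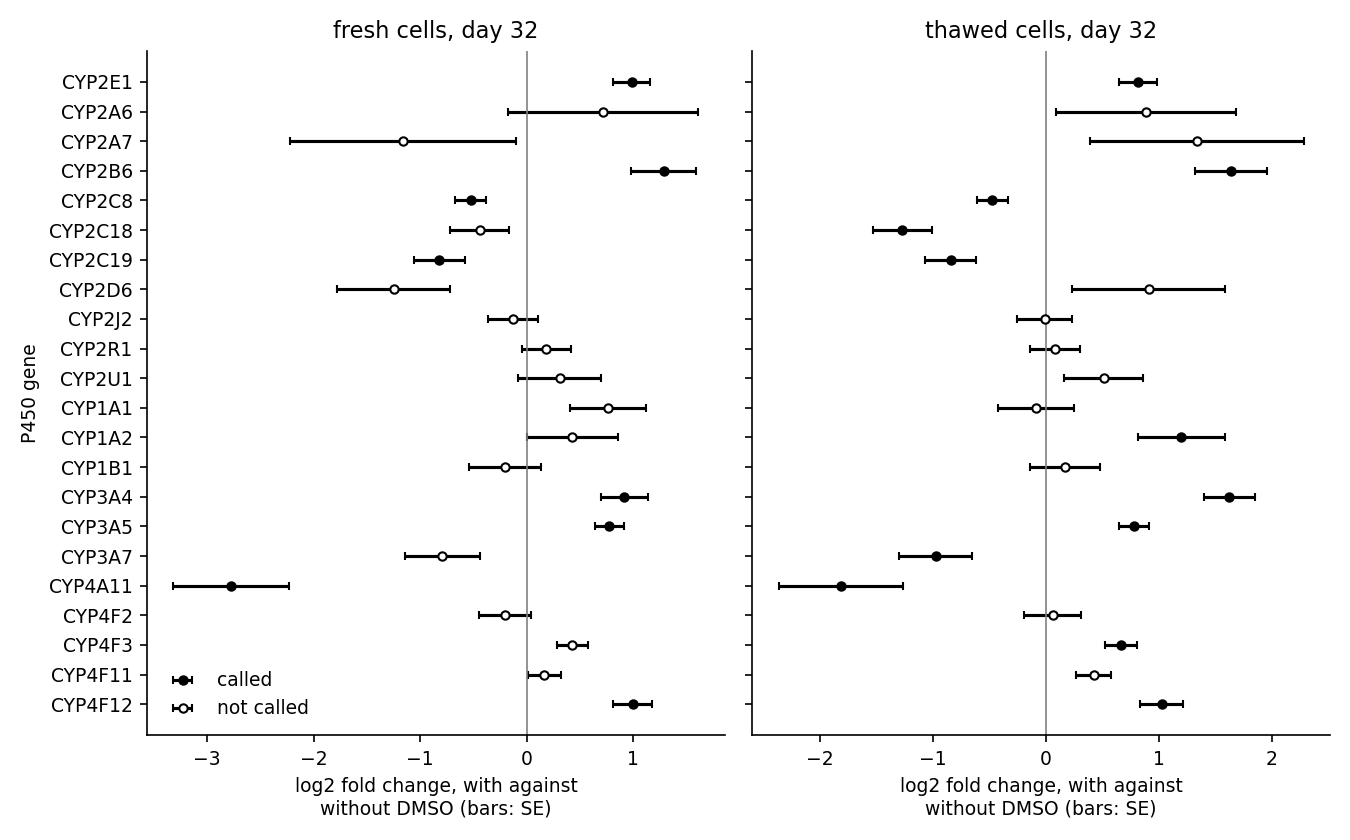
Fitted log2 fold changes at day 32, with against without DMSO, of CYP2E1 and other tested P450 genes of the lists, in fresh cells on the left and thawed cells on the right, with bars for the SE and filled points for called genes. CYP2E1 lies at 0.99 and 0.82, on the same side as CYP2B6 and CYP3A4, while CYP2C8 and CYP4A11 lie below 0 in both.

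The alcohol, acute phase and hepatocyte marker lists gave more falls than rises at this comparison, and so did all genes together. Of all genes 0.478% rose and 1.67% fell in fresh cells, and 2.28% rose and 4.77% fell in thawed cells. The alcohol and aldehyde enzymes gave 1 rise and 3 falls in fresh cells and 2 rises and 4 falls in thawed cells, of 11. ALDH3A2, a fatty aldehyde dehydrogenase, rose by 0.51 and 0.61, while ADH1B had -0.08 in fresh cells, not called, and fell by 0.41 in thawed cells. Inflammatory and acute phase genes gave 1 rise and 5 falls in fresh and 1 rise and 9 falls in thawed cells, of 14 tested, with SAA1, serum amyloid A, falling by 0.63 and 1.30. Of the hepatocyte markers 2 of 8 fell in fresh and 4 of 8 in thawed cells, and none rose. No gene of electron transfer and haem synthesis was called in either status by edgeR, of 13 tested, while 2 in fresh and 4 in thawed cells had an unadjusted p under 0.05 and DESeq2 called 0.

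CYP2E1 rose further in the later days with DMSO. All fresh and thawed libraries of days 37 and 44 had DMSO, so time and DMSO cannot be told apart there. The day 30 libraries, labelled noDMSO, differ from them in both. Fresh parental libraries reached 543, 442 and 408 CPM at day 37 and 755, 678 and 660 CPM at day 44, and transduced ones 369, 379 and 451 CPM and then 418, 433 and 521 CPM. From day 32 to 37 the rise was 2.62-fold, 1.39 ± 0.17 (SE, adjusted p = 1.30e-09 in edgeR, with 10.1% of genes called), and the day 37 libraries did not overlap those of day 32. From day 37 to 44 the difference was 0.39 ± 0.16 (95% interval 0.07 to 0.72), not called (adjusted p = 0.285, with 0.701% of genes called). The parental libraries of days 37 and 44 did not overlap, and the transduced ones did. Over the whole span from day 30 to 44 fresh cells gained 2.80-fold, 1.49 ± 0.18 (adjusted p = 1.61e-09, with 12.7% of genes called).

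In thawed cells CYP2E1 rose as well. Parental thawed libraries had 335, 317 and 261 CPM at day 37 and 438, 491 and 430 CPM at day 44, and transduced ones 174, 210 and 233 CPM and then 321, 273 and 371 CPM. The rise from day 32 to 37 was 1.55-fold, 0.63 ± 0.17 (SE, adjusted p = 0.00643 in edgeR, with 8.97% of genes called). From day 37 to 44 it was 0.61 ± 0.17 (95% interval 0.28 to 0.94), not called (adjusted p = 0.110, with 0.198% of genes called), although the libraries of the 2 days did not overlap within either genotype. DESeq2, a fit without a filter on low counts and a fit of the compared libraries alone each called that step, with adjusted p of 0.0472, 0.00870 and 0.000242. From day 30 to 44 thawed cells gained 1.75-fold, 0.81 ± 0.17 (adjusted p = 0.000470, with 4.62% of genes called). Without the libraries lettered c, neither the step to day 37 (0.67, adjusted p = 0.146) nor the span to day 44 (0.78, adjusted p = 0.106) was called in thawed cells.

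From day 32 to 37 most of the tested CYP2 genes rose with CYP2E1. Of all genes 5.67% rose and 4.47% fell at this step in fresh cells, and 5.46% rose and 3.51% fell in thawed cells. In the family, 7 of 11 tested CYP2 genes rose in fresh cells and 8 of 11 in thawed cells, and 0 fell in either. CYP2C8 rose by 1.93 and 1.41, CYP2B6 by 1.82 and 2.26 and CYP3A4 by 2.73 and 2.48. Of 11 alcohol and aldehyde enzymes 8 rose in fresh and 6 in thawed cells and 0 fell, with ADH1B rising by 0.46 and 0.70. CYB5A, the electron donor cytochrome b5, rose by 0.98 and 0.50. Among genes of acetaminophen conjugation and glutathione, 9 of 14 tested rose in fresh and 5 of 14 in thawed cells. GSTA1, a glutathione transferase, rose by 0.78 in fresh cells and had 0.15, not called, in thawed cells. SULT2A1, a sulfotransferase of steroids, rose by 1.10 and 0.97. Genes of ketone bodies and fasting gave 5 rises and 1 fall of 11 in fresh and 5 rises and 0 falls in thawed cells. Of the pericentral genes RGN rose in both (1.46 and 1.08) and GLUL only in thawed cells passed the test (0.45, beside -0.20 in fresh cells), a difference between statuses that was not tested. The acute phase genes gave 7 rises and 2 falls in fresh and 8 rises and 0 falls in thawed cells, of 14.

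Thawed cells held less CYP2E1 than fresh cells at day 37, and no difference was called at days 30 and 32. At day 30 the difference, thawed against fresh, was 0.11 ± 0.18 (SE, 95% interval -0.24 to 0.47, adjusted p = 0.726 in edgeR, with 16.1% of genes called). At day 32 it was 0.14 ± 0.17 without DMSO (interval -0.21 to 0.49, adjusted p = 0.773, 0.907% called) and -0.03 ± 0.17 with DMSO (interval -0.37 to 0.31, adjusted p = 0.971, 1.36% called). At day 37 thawed cells were 1.73-fold lower, -0.79 ± 0.17 (adjusted p = 0.00636), at a comparison that called 0.487% of genes, 59 in all. CYP2E1 ranked 20th of 12125 genes by p there, and every thawed library lay below every fresh library. At day 44 the difference was -0.57 ± 0.16 (interval -0.89 to -0.24), not called (adjusted p = 0.189, 0.107% called), and within each genotype the thawed libraries lay below the fresh ones. DESeq2, the fit without a filter and the fit of the compared libraries alone called it, with adjusted p of 0.0481, 0.0153 and 1.49e-05, while the call of day 37 was lost without the libraries lettered c (-0.78, adjusted p = 0.284).

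At day 37 few listed genes were called between thawed and fresh cells beside CYP2E1, where edgeR called 0.487% of all genes. At that share short lists may hold no call, so their lack of calls does not set CYP2E1 apart. No other CYP2 gene, no other P450 gene and no alcohol, electron transfer, pericentral or periportal gene was called by edgeR. At an unadjusted p under 0.05 these lists held 2, 0, 5, 1, 2 and 4 genes in that order, and DESeq2 called 1 alcohol gene and 1 pericentral gene. The inflammatory and acute phase genes gave 1 rise and 5 falls of 14, while 0.148% of all genes rose and 0.338% fell. FGB, the fibrinogen beta chain, which is also on the list of hepatocyte markers, fell by 0.62. CYP3A4 and CYP2B6 had differences of -0.02 and 0.26. The gain from day 30 to 44 was smaller in thawed than in fresh cells by 0.68 ± 0.24 (SE) for CYP2E1, an adjusted p of 0.0871 in edgeR with 4.26% of genes called, so this difference was not called. DESeq2 called it (adjusted p = 0.0370), as did the fit of the compared libraries alone (adjusted p = 0.00164).

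Cells with the CYP2D6 construct held less CYP2E1 than parental cells once differentiated. Over the 5 fresh conditions the transduced cells were 1.45-fold lower, -0.54 ± 0.11 on the log2 scale (SE, adjusted p = 0.000910 in edgeR, with 3.25% of genes called). Over the 5 thawed conditions they were 1.31-fold lower, -0.39 ± 0.11 (adjusted p = 0.0263, with 2.14% called). In progenitors the difference was -0.38 ± 0.21 (95% interval -0.79 to 0.03), not called (adjusted p = 0.398, with 1.41% called), and 0.03 without parental day 14 replicate a. Mean levels were lower in transduced cells in 5 of 5 fresh and 5 of 5 thawed conditions. The libraries of the genotypes did not overlap in 4 of the fresh conditions (all but day 37) and in 3 of the thawed ones (days 30, 37 and 44). Without the libraries lettered c the difference was -0.59 (adjusted p = 0.0516) in fresh and -0.48 (adjusted p = 0.213) in thawed cells, and without those lettered b it was -0.27 (adjusted p = 0.284) in thawed cells, so neither call held in every fit.

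**Figure D4:**
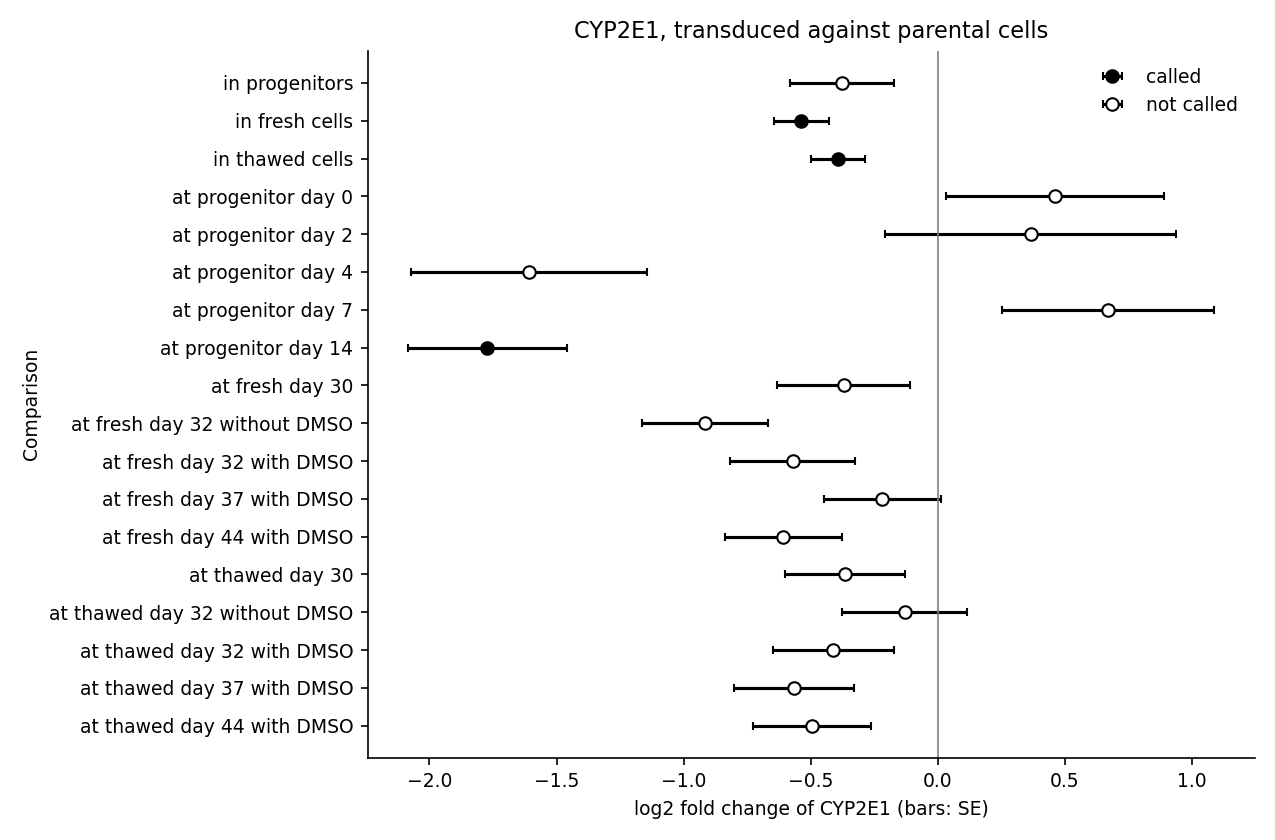
Fitted log2 fold changes of CYP2E1 in transduced against parental cells on the horizontal axis, for the mean of the conditions of each status and for each condition, with bars for the SE and filled points for called comparisons. All 10 fresh and thawed conditions lie below 0, and progenitor day 14, at -1.77, rests on 1 parental library.

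Within single conditions, 1 of 15 differences was called. It was progenitor day 14, at -1.77 ± 0.31 (SE, adjusted p = 0.000756 in edgeR, with 0.47% of genes called), and without parental replicate a it was 0.27 (adjusted p = 0.879). In fresh cells the differences were -0.37 (day 30), -0.91 and -0.57 (day 32 without and with DMSO), -0.22 (day 37) and -0.61 (day 44), where 0.198%, 0%, 0.132%, 0.14% and 0.0495% of genes were called. In thawed cells they were -0.36 (day 30), -0.13 and -0.41 (day 32 without and with DMSO), -0.57 (day 37) and -0.49 (day 44), where 0.00825%, 0%, 0.0247%, 0.0577% and 0.264% were called. In progenitors they were 0.46, 0.37, -1.61 and 0.67 for days 0, 2, 4 and 7, where 2.07%, 0%, 0.033% and 0.619% were called. Of these 15 comparisons 7 had an unadjusted p under 0.05 for CYP2E1, and DESeq2 called 1. In the 3 conditions where edgeR called no gene, 487 to 1239 of 12125 genes had an unadjusted p under 0.05, and DESeq2 called 32 genes at progenitor day 2 and 0 in the other two.

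The genotype difference was not shown to vary with status or time. It differed by -0.16 ± 0.24 (SE) between fresh cells and progenitors, by -0.02 ± 0.28 between thawed cells and progenitors and by 0.14 ± 0.15 between thawed and fresh cells (adjusted p = 0.908, 1.00 and 1.00 in edgeR, with 1.36%, 1.87% and 0% of genes called). The progenitor side of the fresh and thawed differences includes parental day 14 replicate a, so their size depends on that library. Over the 11 alternatives the fresh one ranged from -0.59 to 0.024 and the thawed one from -0.59 to 0.28, none called. The gain from day 30 to 44 differed between transduced and parental cells by -0.24 ± 0.35 in fresh cells (interval -0.94 to 0.46) and by -0.13 ± 0.33 in thawed cells (interval -0.79 to 0.53), with 0.00825% and 0% of genes called. The changes that touch progenitor day 14 differed by -2.23 ± 0.53 (day 0 to 14, adjusted p = 0.116, with 0.033% called) and 1.40 ± 0.41 (day 14 to fresh day 30, adjusted p = 0.107, with 0.0247% called). Without parental replicate a of day 14 these were -0.17 and -0.63, neither called. Of the 9 differences of effects tested, edgeR called 0, 3 had an unadjusted p under 0.05 and DESeq2 called 3. In the pair of these differences where edgeR called no gene at all, 473 and 510 genes had an unadjusted p under 0.05 and DESeq2 called 0.

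Several enzymes close to CYP2E1 in function were also lower in transduced cells. Of all genes 1.51% rose and 1.74% fell in fresh cells, and 0.792% rose and 1.34% fell in thawed cells. Of 11 alcohol and aldehyde enzymes 5 fell in fresh and 7 in thawed cells and 0 rose. ADH1B fell by 0.39 and 0.43, and ALDH2, the mitochondrial acetaldehyde dehydrogenase, which is outside the naming rule and was chosen after its values were seen, fell by 0.35 and 0.37. In the CYP2 family 1 of 11 rose, CYP2D6 itself, by 3.96 and 4.68, and 3 fell in each status. CYP2C8 fell by 0.37 and 0.60. CYP3A4 fell by 0.57 and 0.59 and CYP3A5 by 0.48 and 0.42, among 3 falls and 0 rises of 11 P450 genes outside the family in each status. Of electron transfer and haem genes 4 of 13 fell in fresh cells, POR by 0.56 and CYB5A by 0.25, and 1 of 13 in thawed cells, CYB5A by 0.27. Of 8 hepatocyte markers 3 fell and 0 rose in each status. The 9 pericentral genes and the 10 genes of protein degradation at the endoplasmic reticulum gave 0 calls in both statuses in edgeR. Lists this short may hold no call where 3.25% and 2.14% of all genes were called. Of the pericentral genes 3 in fresh and 1 in thawed cells, and of the degradation genes 0 and 1, had an unadjusted p under 0.05, and DESeq2 called 0. Of all 12125 genes 1685 in fresh and 1417 in thawed cells had such a p.

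Of 14 tested transcription factors and nuclear receptors of liver, 2 rose and 0 fell at differentiation, and 0 rose and 1 fell with the genotype in each of fresh and thawed cells. Those called, named after their values were seen, were FOXA2, a forkhead factor, which rose by 1.27 at differentiation, and NR1I3, the receptor CAR, which rose by 1.09 at differentiation and fell by 0.73 and 1.03 in transduced fresh and thawed cells. At differentiation 11.8% of all genes rose, and with the genotype 1.74% and 1.34% fell. HNF4A, the receptor that maintains hepatocyte identity, averaged 185 CPM, but its libraries spread widely, for example 212 ± 167 CPM (SD, n = 3) in parental and 327 ± 189 CPM (n = 3) in transduced fresh cells at day 44. No called change of HNF4A accompanied the rise of CYP2E1 at differentiation (0.02), the effect of DMSO (0.71 and 0.40) or the genotype difference (0.00 and -0.19). CTNNB1, which encodes beta-catenin, had 0.20 at differentiation, not called. PPARA, a receptor for fatty acids, rose by 0.79 from progenitor day 0 to 14 and fell by 0.69 in fresh cells at day 32 without DMSO. Among chaperones of the endoplasmic reticulum HSPA5 rose by 0.99 at differentiation. Of the 10 degradation genes listed with HSPA5, 6 rose and 0 fell at that step, beside 11.8% and 11.5% of all genes. HSPA5 fell by 0.62 in fresh cells at day 32 without DMSO. In thawed cells edgeR called no gene of that list at the same step, where 11.4% of all genes were called. Of the 10 tested there, 2 had an unadjusted p under 0.05, and DESeq2 called 0.

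The genes whose levels were most like those of CYP2E1 included a P450 enzyme and proteins that hepatocytes secrete. Likeness is Pearson's r of log2(mean CPM + 1) over the 30 groups, among the 6674 tested genes that averaged 10 CPM or more. It is a description, since the groups share the same steps of differentiation and the same libraries. APOC3, an apolipoprotein that restrains lipoprotein lipase, had an r of 0.973. GPX2, a glutathione peroxidase, had 0.971, and TTR, the thyroxine carrier transthyretin, 0.970. CYP4F3, an omega-hydroxylase, followed at 0.969, the acyl-CoA synthetases ACSM2A and ACSM2B at 0.967 and 0.963, and ABCG8, of the sterol transporter, at 0.962. ACSM2A and ACSM2B are near-identical paralogs whose reads the counting could have split. In all, 116 genes had an r above 0.9. The like genes did not all share the difference of CYP2E1 with DMSO at day 32. In parental fresh cells CYP2E1 had 114 CPM without and 201 CPM with DMSO. There GPX2 had 142 and 139 CPM and ACSM2B 206 and 198 CPM. The other like genes named here were higher with DMSO, for example ABCG8 at 17.3 and 24.2 CPM.

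The 3 lowest r were those of DKK1, a secreted Wnt inhibitor, at -0.963, SLC25A6, a mitochondrial ADP/ATP carrier, at -0.947, and CDA, cytidine deaminase, at -0.944. Over the 20 fresh and thawed groups alone, without progenitors, r of the like genes named here was 0.875 (ACSM2B) to 0.905 (CYP4F3). DKK1 had -0.856 there, while SLC25A6 and CDA were nearer 0, at -0.689 and -0.685. Of the genes listed beside CYP2E1, over all 30 groups, CYP3A4 had 0.952, ADH1B 0.922, RGN 0.897, ALDH2 0.892, POR 0.847 and HNF4A 0.657. GLUL had -0.195 and CYP1B1, an extrahepatic P450, -0.883 over the same 30 groups. Over the 20 fresh and thawed groups alone CYP3A4 had 0.903, RGN 0.886, ALDH2 0.881, POR 0.804 and ADH1B 0.654. HNF4A was at 0.149 there, CYP1B1 at -0.359 and GLUL at 0.233, so the sign for GLUL was not the same.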

How the data were processed

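RNA of 90 HepaRG samples was measured by BRB-seq from 10 ng of total RNA each, per the labels' protocols. The authors deposited 1 table of raw counts per gene symbol, not scaled between libraries. BWA 0.7.4.4 and the builds hg38 and mm10 are named per the submitters' processing notes, without their roles. The counting rule, strand and use of molecular identifiers are not given in the sources used here.

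From these counts edgeR 4.0.16 (R 4.3.3) fitted 1 mean per group to all 90 libraries and 30 groups, with TMM factors, filterByExpr and a robust quasi-likelihood test (60 residual degrees of freedom), adjusted by Benjamini-Hochberg over 12125 genes. A call is an adjusted p under 0.05. The SE is the log2 change divided by the root of F, and intervals are 95%. Levels leave out 3 libraries under 0.25 times the median total. DESeq2 1.42.0, RLE factors, other filters, a replicate block, leave-outs and a fit of the compared libraries alone were the alternatives. Mean levels, libraries and lists were described without set tests. The code was tested on simulated data.

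CYP2E1, the gene lists and the tests were chosen with earlier results of these data known. Named genes are CYP2E1, the 8 highest and 3 lowest in likeness, the 3 members of each list with the highest mean CPM, all tested pericentral genes, HNF4A and the 3 nearest RefSeq genes on each side. CYP2D6 is named as the transgene, and POR, ALDH2, CYP4A11, CYP2C19 and CYP1B1 were chosen after their values were seen. Some genes that this rule names are not reported here. The letters a, b and c did not pair libraries: residuals of libraries with the same letter had a median correlation of -0.00254, and 28 of 87 libraries were closest to their own letter. No 2 libraries of a group agreed within sampling noise (84 pairs, lowest chi-square per gene 1.93).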

Additional observations from a re-analysis of the deposited data

How the results depend on the processing

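All 48 CYP2E1 comparisons kept their direction and call with RLE factors, with a mean count of at least 10, without the 3 nearly empty libraries and with a replicate block, which gave -0.54 for the genotype difference in fresh cells (adjusted p = 0.00117) and changed no call. Called under every alternative run were the rise at differentiation, the fall at day 32 without DMSO and the rise from progenitor day 7 to 14. So were the fresh rise from day 32 to 37 and the fresh gain from day 30 to 44. Counts of all genes called, which give the percentages, were less stable: they moved by over 1.5 times in 42, 39 and 20 of 48 comparisons without the libraries lettered a, b and c, in 30 of 47 in fits of the compared libraries alone and in 25 with DESeq2. For example, edgeR called 261 genes for DMSO in fresh cells (103 to 370 over the alternatives), 854 in thawed cells (291 to 1422), 394 for genotype in fresh cells (81 to 564), 259 in thawed cells (60 to 480) and 59 between thawed and fresh cells at day 37 (7 to 91). The count of alcohol and aldehyde genes lower in transduced cells was 2 to 8 in fresh and 3 to 9 in thawed cells.

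Some log2 differences that edgeR did not call were called elsewhere. Without a filter on low counts these were 0.63 (thawed day 44 against 37), -0.57 (thawed against fresh day 44), -1.60 (genotype at progenitor day 4), and for the genotype difference in the changes to and from progenitor day 14, -2.24 and 1.49. DESeq2 called 0.63, -0.56, -2.21 and 1.32 for the same results other than progenitor day 4, and -0.68 for the thawed minus fresh gain from day 30 to 44. Fits of the compared libraries alone called 0.40 and 0.62 (day 44 against 37, fresh and thawed), -0.56 (thawed against fresh day 44), -0.66 (thawed minus fresh gain), and the genotype difference at fresh day 32 without (-0.89) and with DMSO (-0.58), fresh day 44 (-0.59) and thawed day 44 (-0.47). At progenitor day 2 that fit gave no value, because CYP2E1 did not pass its filter.

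Leaving out the libraries of 1 letter leaves 2 or fewer a group. The ranges that follow are over all alternatives, these leave-outs included. The DMSO effect at day 32 ranged from 0.82 to 1.09 in fresh and 0.73 to 0.85 in thawed cells. The thawed rise to day 37 ranged from 0.56 to 0.67, the thawed gain to day 44 from 0.78 to 0.82 and the day 37 difference from -0.86 to -0.76. Genotype ranged from -0.59 to -0.47 in fresh and -0.48 to -0.27 in thawed cells. Each lost its call without at least 1 letter. Results that were not called and crossed 0 were progenitor day 4 against 2 (-0.11 to 0.37), thawed against fresh day 32 without (-0.036 to 0.29) and with DMSO (-0.14 to 0.028), genotype in progenitors (-0.55 to 0.12), at progenitor day 2 (-0.10 to 0.78) and at thawed day 32 without DMSO (-0.42 to 0.10), and the differences of genotype effects against progenitors (fresh -0.59 to 0.024, thawed -0.59 to 0.28) and of DMSO effects (-0.32 to 0.029). Day 2 against 0 ranged from -1.13 to -0.32 and was called without the libraries lettered a (-1.13, adjusted p = 0.0238). Results on progenitor day 14 moved most: day 14 against 0 from 0.42 to 2.32, genotype there from -2.64 to 0.37, and the genotype difference in the changes to and from day 14 from -3.13 to -0.012 and from -0.78 to 2.48, both called without the libraries lettered b, at -3.13 and 2.48. Leaving out only parental day 14 replicate a, chosen after seeing the data, is 1 of the alternatives that set these ranges. The cause was not tested.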
